A study of Mus musculus with 18 samples.

Results

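Zinc-handling genes were followed in MIN6 cells, a mouse insulinoma line that makes and secretes insulin, during endoplasmic reticulum (ER) stress. The 8 genes are the zinc exporters Slc30a8, Slc30a1, Slc30a5 and Slc30a7, the zinc importers Slc39a7 and Slc39a14, and the metallothioneins Mt1 and Mt2. They were chosen by name, with earlier results of these data known, and make up 8 of the 17207 genes with reads. RefSeq mRNA accessions were assigned to gene symbols, and the reads and RPKM (reads per kilobase of transcript, scaled to the total reads of the library) of a gene's transcripts were summed. Control cells received DMSO for 18 h, and treated cells received 200 µM cyclopiazonic acid (CPA), an inhibitor of the calcium pump SERCA, for 1 h (CPA1) or 18 h (CPA18). The control was therefore matched in time to CPA18 and not to CPA1. Each treatment was measured by mRNA-seq of poly(A) RNA and by Ribo-seq, which sequences the mRNA fragments protected by ribosomes, in 3 independent experiments (18 libraries). MIN6 is 1 tumour-derived line, so the experiments are repeats of a culture and not separate animals.

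Zinc enters the cytosol through the ZIP importers, encoded by Slc39a genes, and leaves it for organelles or the outside through the ZnT exporters, encoded by Slc30a genes. Beta cells hold much of their zinc in secretory granules, where ZnT8 (Slc30a8) loads it and insulin crystallizes with it. ZnT5 and ZnT7 (Slc30a5, Slc30a7) carry zinc into the early secretory pathway, ZIP7 (Slc39a7) releases it from the ER and Golgi to the cytosol, ZnT1 (Slc30a1) exports it across the plasma membrane, and ZIP14 (Slc39a14) imports zinc and iron. Metallothioneins are small cysteine-rich proteins that bind zinc in the cytosol, and the zinc-sensing factor MTF1 drives their genes through metal response elements.

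Mt1 and Mt2, which lie side by side on chromosome 8, were among the most abundant mRNAs and rose together in Ribo-seq, so the 250 bases before the first base of their counted RefSeq mRNAs are shown. They come from RefSeq on GRCm38.p6, plus strand, at chr8:94178839-94179088 for Mt1 and chr8:94172368-94172617 for Mt2. Capitals mark matches on either strand to the core of the metal response element, searched as TGCACNC or TGCGCNC.
Mt1: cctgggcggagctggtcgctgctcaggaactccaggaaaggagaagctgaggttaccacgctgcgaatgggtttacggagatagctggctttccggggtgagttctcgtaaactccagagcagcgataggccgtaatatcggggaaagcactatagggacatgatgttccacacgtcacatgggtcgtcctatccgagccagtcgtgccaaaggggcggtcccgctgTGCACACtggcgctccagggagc
Mt2: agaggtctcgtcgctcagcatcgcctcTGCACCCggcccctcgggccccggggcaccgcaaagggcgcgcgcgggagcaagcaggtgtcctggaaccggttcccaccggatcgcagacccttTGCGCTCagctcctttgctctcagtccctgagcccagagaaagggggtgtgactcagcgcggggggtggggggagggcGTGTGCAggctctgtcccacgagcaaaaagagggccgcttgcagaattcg

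In these windows of 250 bases, with positions counted back from the first base of the mRNA, Mt2 held 3 matches, at -223, -128 and -50, and Mt1 held 1, at -23. Slc30a1 and Slc30a5 held 1 each, at -43 and -48, and Slc30a7 and Slc39a7 held none. Of 32851 such windows in the genome, 21.4% held at least 1 match and 1.26% held 3 or more. The ER stress element, the XBP1 element TGACGTGG and the C/EBP-ATF composite core TGATGNAA were found in none of these 6 windows, against 0.113%, 0.563% and 3.45% of all windows. A match is a run of letters and not a measured binding site. Only these 250 bases were searched for each gene, and bases inside the counted mRNA were not. The site where transcription starts in these cells was not measured, and elements past the first base of the mRNA would be missed. The numbers are therefore not totals for a whole promoter, and they do not rank Mt1 against Mt2 in such elements.

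The members lie on 7 chromosomes of GRCm38 (spans are those of the counted mRNAs), and reads were counted over whole RefSeq mRNAs, UTRs included. Slc30a8 spans chr15:52295553-52335798 and Slc39a7 spans chr17:34028266-34031690. Slc30a5 spans chr13:100802648-100833427, Slc30a7 spans chr3:115938973-116007406, Slc30a1 spans chr1:191906781-191913247 and Slc39a14 spans chr14:70303467-70351424. Mt1 and Mt2 span chr8:94179089-94180327 and chr8:94172618-94173567. With predicted transcripts included, the RefSeq gene spans of Mt1, Slc30a1, Slc30a5 and Slc30a7 start farther upstream and overlap the windows searched, and the single matches of Mt1, Slc30a1 and Slc30a5 lie inside those longer spans. The Slc30a1 gene overlaps the gene 1700034H15Rik, and Slc30a7 overlaps Gm6649 and Mir669n, and a use of strand in the counting is not given in the sources used here. Mt1 and Mt2 are distinct enough for separate counting at most read lengths: no 30-base stretch of Mt1 occurs in Mt2 with up to 1 mismatch, but 4.40% of 20-base stretches do.

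Total counts ran from 520960 to 4755030 reads in mRNA-seq and from 168129 to 1083297 in Ribo-seq. Lars2, which encodes a mitochondrial aminoacyl-tRNA synthetase, took 4.75% to 54.8% of the mRNA-seq reads, with 45.1% to 54.8% in the libraries of experiment 1 and 38.1% in CPA1 of experiment 2, and at most 3.51% in Ribo-seq. Ins1 and Ins2 together took 1.44% to 20.9% of the mRNA-seq reads. Fold changes are given on the scale of the library total, because the study scaled its values to total aligned reads. These shares enter that total, so other scalings are given as alternatives. On the scale of the total, the median gene moved by a log2 value of -0.12 in CPA1 and 0.36 in CPA18 against control in mRNA-seq. In Ribo-seq it moved by 0.07 and 0.39. All 8 beta cell markers had reads in every library, with a summed level of 154500 to 457300 RPKM in control mRNA-seq and 42550 to 131400 in CPA18. Alpha cell markers summed to 949 to 2626 RPKM in control and 150 to 403 in CPA18, and most of this sum was Ttr (909 to 2518 RPKM in control, 128 to 348 in CPA18), with Gcg at 39.7 to 108 and 21.7 to 84.0. Markers of delta and PP cells summed to at most 19.7 RPKM in any library and acinar, fibroblast and macrophage markers to at most 4.29, and the acinar markers found in the tables were at 0 in Ribo-seq. In bulk RNA, fewer cells of a type and less of an RNA per cell cannot be told apart.

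**Figure D1:**
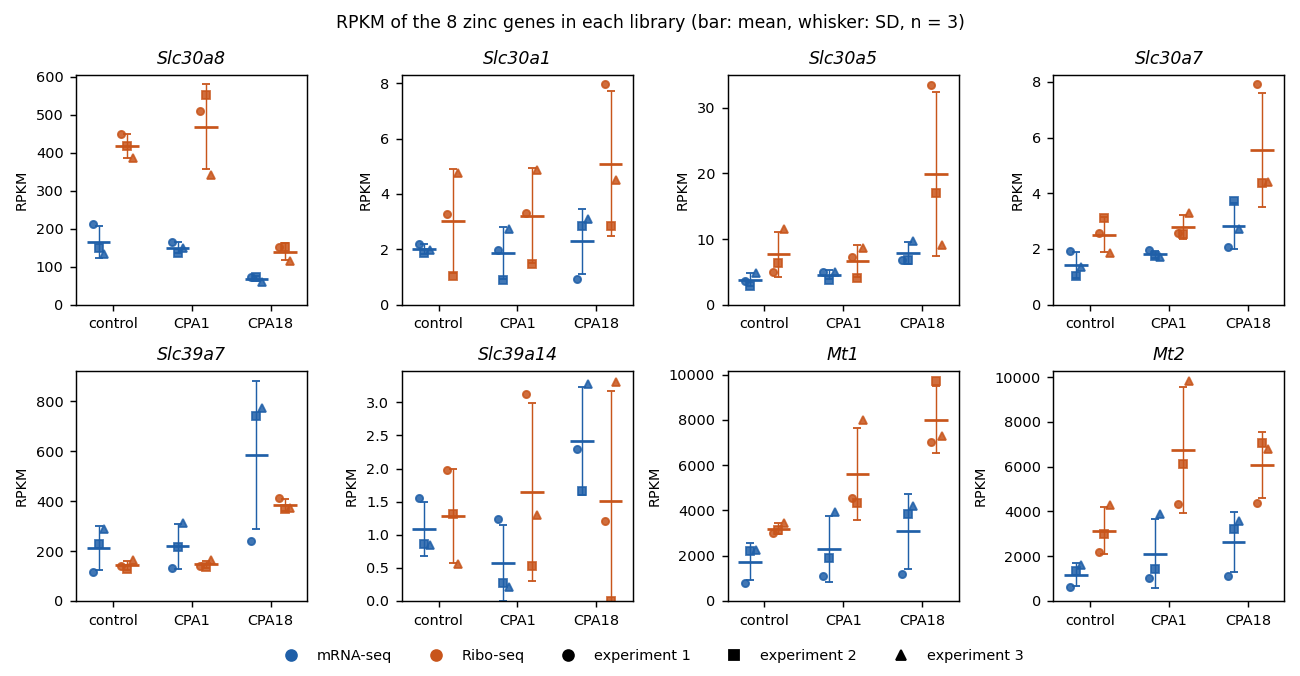
RPKM (vertical axis, from 0, a separate scale for each gene) of the 8 genes in control, CPA1 and CPA18, with a point for each library, its shape giving the experiment and its colour the assay. Horizontal bars are means and whiskers the SD (n = 3). Slc30a8 is lowest in the CPA18 libraries of both assays, and Slc39a7 in Ribo-seq lies between 369 and 413 in CPA18 and at or below 164 elsewhere.

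In control cells the members fell into 4 abundant genes and 4 scarce ones. By mRNA-seq, Mt1 stood at 1737 ± 828 RPKM and Mt2 at 1182 ± 502 (SD, n = 3 here and for all levels). Mt1 was above Mt2 in each experiment although their ranges overlapped. Slc39a7 at 212 ± 88.6 and Slc30a8 at 165 ± 42.8 RPKM came next and did not differ beyond their spread. Slc30a5 followed at 3.76 ± 0.987 RPKM, above Slc30a1 at 2.02 ± 0.173 in every experiment. The ranges of Slc30a1, Slc30a7 (1.42 ± 0.458) and Slc39a14 (1.09 ± 0.406) overlapped their neighbours. In Ribo-seq the order of Slc30a8 and Slc39a7 was clear, with 417 ± 31.1 RPKM for Slc30a8 and 143 ± 18.2 for Slc39a7 and no overlap. Mt1 ranked 10th among all genes in each of the 3 control Ribo-seq libraries, at 3195 ± 233 RPKM, and Mt2 ranked 15th, 11th and 9th. The 4 scarce genes rested on few reads, from 0 to 39 per library for Slc39a14, 3 to 71 for Slc30a1, 5 to 104 for Slc30a5 and 8 to 159 for Slc30a7. The abundant genes had at least 50 reads in every library.

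After 18 h of CPA, the granule exporter Slc30a8 fell and the ER and Golgi importer Slc39a7 rose, in mRNA and in ribosome footprints alike. Both metallothioneins and the early secretory exporters Slc30a5 and Slc30a7 were also called higher in both assays, and Slc30a1 and Slc39a14 did not pass the test. The calls of Slc30a5 and Slc30a7, and the mRNA call of Mt1, held in only 10 or 11 of 23 alternative fits. Slc30a5 footprints were below control in experiment 3. Of the 7 members with at least 1 read in all 18 libraries, 5 rose and 1 fell in mRNA-seq against control (edgeR's quasi-likelihood test with the experiment as a block, Benjamini-Hochberg adjusted p under 0.05). Of all 7794 genes tested, 33.6% were called, 25.9% higher and 7.69% lower. The same 5 and 1 were called in Ribo-seq, where 30.9% of genes were called, 24.6% higher and 6.35% lower. The mRNA libraries of CPA18 lay entirely above those of control for 3 of the 8 members and below for 1, beside 14.8% and 5.34% of all genes, and the footprint libraries lay above for 4 and below for 1, beside 38.0% of all genes in either direction. With libraries scaled to the median gene instead, 15.8% rose and 15.3% fell in mRNA-seq and 9.42% rose and 14.3% fell in Ribo-seq, and the members called were Slc39a7 and Mt2 (higher) and Slc30a8 (lower) in both assays, with Mt1 also higher in Ribo-seq. The median log2 fold change of these 7 came to 1.06 for mRNA and 1.09 for footprints, beside 0.36 and 0.39 for all genes. The 2 assays used separate libraries of the same experiments. Without the block, no member was called in mRNA-seq and all 6 were called in Ribo-seq, where 1.98% and 25.1% of all genes were called.

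Slc30a8 mRNA stood at 213, 149 and 132 RPKM in control experiments 1 to 3, at 166, 136 and 148 in CPA1, and at 71.5, 72.1 and 59.8 in CPA18. Its footprints stood at 449, 416 and 386 RPKM in control, at 510, 552 and 341 in CPA1, and at 151, 152 and 115 in CPA18. In both assays all 3 CPA18 libraries were below all control and all CPA1 libraries, while control and CPA1 overlapped. The log2 fold change in CPA18 was -1.25 ± 0.245 (SE) in mRNA-seq (adjusted p = 2.91e-05 by edgeR, 0.149 without the block) and -1.60 ± 0.179 in Ribo-seq (adjusted p = 3.77e-16). Relative to the median gene the decrease was larger, at -1.61 and -1.99. From CPA1 to CPA18 the mRNA fell by 1.14 ± 0.244 on the log2 scale (adjusted p = 0.000113, 0.174 without the block) and the footprints fell by 1.74 ± 0.181 (adjusted p = 2.38e-18). The calls of Slc30a8 held under each other alternative tried.

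Slc39a7 mRNA stood at 116, 230 and 290 RPKM in control, at 132, 214 and 313 in CPA1, and at 241, 741 and 773 in CPA18. The experiments differed in level, experiment 1 being lowest in each treatment, and CPA18 was above control within every experiment although the ranges overlapped. Its footprints were at 139, 128 and 163 RPKM in control, at 138, 138 and 164 in CPA1 and at 413, 369 and 374 in CPA18, with no overlap of CPA18 with the others. The log2 fold change in CPA18 was 1.40 ± 0.249 in mRNA-seq (adjusted p = 3.66e-06 by edgeR, 0.184 without the block) and 1.42 ± 0.170 in Ribo-seq (adjusted p = 2.55e-14). Relative to the median gene these values were 1.04 and 1.03. From CPA1 to CPA18 it rose by 1.33 ± 0.248 in mRNA-seq (adjusted p = 9.08e-06, 0.183 without the block) and by 1.39 ± 0.175 in Ribo-seq (adjusted p = 5.44e-13). As for Slc30a8, only the fit without the block ended a call among the alternatives tried.

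**Figure D2:**
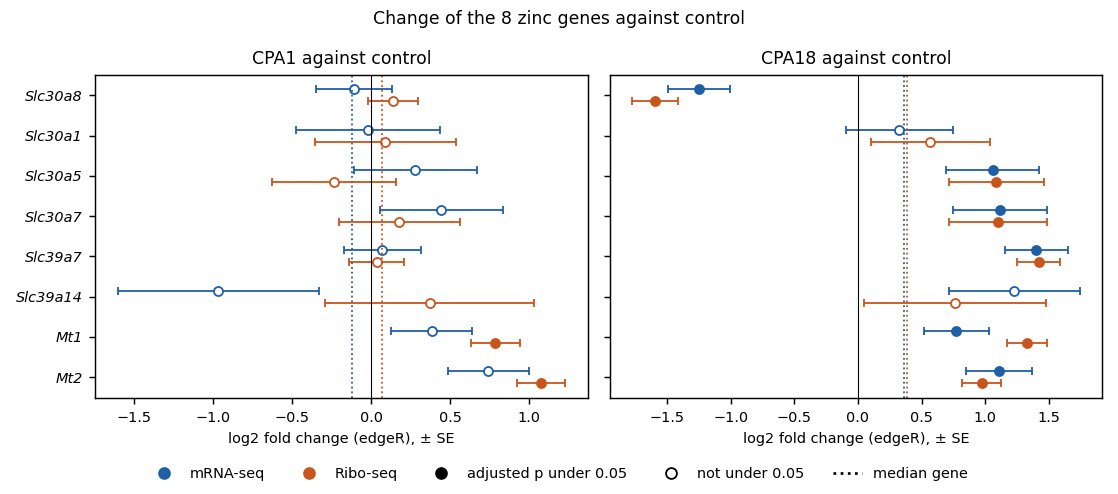
Log2 fold change from edgeR (horizontal axis, ± SE) of the 8 genes in CPA1 (left) and CPA18 (right) against control, with filled points for an adjusted p under 0.05 and dotted lines at the median gene of each assay. In CPA1 only the footprints of Mt1 and Mt2 are filled, and in CPA18 Slc30a8 lies at -1.25 and -1.60 while 5 genes are filled on the right of 0 in both assays. The points of Slc39a14 come from a fit with a looser filter on low counts.

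The metallothioneins were the members called in Ribo-seq of CPA1 against control. That control was treated for 18 h, so the effect of CPA and the difference in time cannot be told apart. Mt2 footprints stood at 2175, 2978 and 4293 RPKM in control, at 4314, 6102 and 9818 in CPA1 and at 4357, 7067 and 6791 in CPA18. Mt1 footprints stood at 2986, 3153 and 3445 RPKM in control, at 4558, 4317 and 7979 in CPA1 and at 7035, 9721 and 7291 in CPA18. For both genes every CPA1 library was above every control library, which held for 10.3% of all genes, with 8.46% the other way, and every CPA18 library was also above every control library. Of the 7 tested members these 2 were the ones called in Ribo-seq of CPA1 against control, where 6.51% of all genes were called, 3.72% higher and 2.78% lower. Mt2 rose by 1.08 ± 0.152 (adjusted p = 7.06e-10 by edgeR) and Mt1 by 0.79 ± 0.153 on the log2 scale (adjusted p = 2.45e-05). Without the CPA1 Ribo-seq library of experiment 3, the one with the highest level of both, Mt1 stood at 0.48 with an adjusted p of 0.0510, and Mt2 was still called. In CPA18 against control the footprints rose by 1.33 ± 0.155 for Mt1 (adjusted p = 4.54e-15) and by 0.98 ± 0.154 for Mt2 (adjusted p = 1.25e-08).

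Mt1 mRNA stood at 780, 2196 and 2233 RPKM in control, at 1083, 1917 and 3923 in CPA1 and at 1175, 3834 and 4210 in CPA18. Mt2 mRNA stood at 625, 1324 and 1598 RPKM in control, at 1023, 1436 and 3894 in CPA1 and at 1127, 3205 and 3578 in CPA18. Experiment 1, in which Lars2 took the largest share of reads, was lowest for both genes in every treatment, so that the ranges overlapped although CPA18 was above control within each experiment. In CPA18 the mRNA rose by 1.11 ± 0.256 for Mt2 (adjusted p = 0.000375 by edgeR, 0.311 without the block) and by 0.77 ± 0.255 for Mt1 (adjusted p = 0.0132, 0.481 without the block). The Mt1 call was lost without any 1 of the 3 control libraries or without the CPA18 library of experiment 2 or 3, with log2 values of 0.60 to 0.91 and adjusted p of 0.0558 to 0.165. It was also lost under the scalings by TMM (0.38), by the median gene (0.48), by DESeq2 (0.41) and by the total without Ins1 and Ins2 (0.58).

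In mRNA-seq of CPA1 against control none of the 7 members was called by edgeR, which called 0.719% of all genes, 0.449% higher and 0.269% lower. At an unadjusted p under 0.05 there was 1, Mt2, beside 486 of all 7794 genes. Mt2 was above control in 3 of 3 experiments. Limma called 0, and DESeq2 and edgeR scaled by TMM each called 1, Mt2. The share of all genes called is not given here for these 3 fits. The number of members called moved with the scaling and the libraries, and was 1 without experiment 2. With library totals taken without Lars2, an alternative added after its share was seen, Mt1 and Mt2 were both called, beside 0.423% of all genes called higher. The other 5 tested members had log2 values of -0.11 to 0.44 in mRNA-seq and -0.23 to 0.18 in Ribo-seq in CPA1 against control.

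The early secretory exporters were scarce, and their values carried more counting error. Slc30a5 mRNA stood at 3.61, 2.86 and 4.81 RPKM in control, at 4.97, 3.73 and 4.96 in CPA1 and at 6.81, 6.85 and 9.75 in CPA18. Slc30a7 mRNA stood at 1.92, 1.01 and 1.34 RPKM in control, at 1.96, 1.76 and 1.70 in CPA1 and at 2.05, 3.71 and 2.71 in CPA18. For both genes all CPA18 mRNA libraries were above all control and all CPA1 libraries. The log2 fold change in CPA18 was 1.06 ± 0.366 for Slc30a5 (adjusted p = 0.0177 by edgeR, 0.214 without the block) and 1.12 ± 0.370 for Slc30a7 (adjusted p = 0.0137, 0.206 without the block). Each call was lost without the control or CPA18 library of experiment 2 or of experiment 3, with log2 values of 0.98 to 1.17 for Slc30a5 (adjusted p 0.0692 to 0.135) and 0.75 to 1.19 for Slc30a7 (adjusted p 0.0541 to 0.284). Neither passed under TMM, DESeq2 or the median gene.

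Slc30a5 footprints stood at 4.96, 6.40 and 11.6 RPKM in control, at 7.24, 3.99 and 8.65 in CPA1 and at 33.6, 16.96 and 9.05 in CPA18. The rise was carried by experiments 1 and 2, and in experiment 3 CPA18 was below control. Slc30a7 footprints stood at 2.57, 3.10 and 1.84 RPKM in control, at 2.56, 2.54 and 3.30 in CPA1 and at 7.92, 4.37 and 4.40 in CPA18, where all CPA18 libraries were above the others. The log2 fold change was 1.09 ± 0.374 for Slc30a5 (adjusted p = 0.0166 by edgeR) and 1.10 ± 0.383 for Slc30a7 (adjusted p = 0.0181). The Slc30a5 call was lost without the control or CPA18 library of experiment 1 or 2, with log2 values of 0.44 to 1.11 (adjusted p 0.0620 to 0.516), and the value was 1.75 or 2.01 without the control or CPA18 library of experiment 3. The Slc30a7 call was lost without the control or CPA18 library of experiment 1 or 3, with log2 values of 0.84 to 1.20 (adjusted p 0.0631 to 0.162). Neither footprint call passed under TMM, DESeq2, limma or the median gene.

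At the plasma membrane, the exporter Slc30a1 showed no detectable change at this depth. Its mRNA stood at 2.20, 1.86 and 1.99 RPKM in control, at 1.98, 0.885 and 2.73 in CPA1 and at 0.924, 2.86 and 3.08 in CPA18. Its footprints stood at 3.26, 1.03 and 4.77 RPKM in control, at 3.32, 1.46 and 4.88 in CPA1 and at 7.97, 2.82 and 4.49 in CPA18. The treatments overlapped in both assays, with log2 values in CPA18 of 0.33 ± 0.422 in mRNA-seq (adjusted p = 0.585 by edgeR) and 0.57 ± 0.468 in Ribo-seq (adjusted p = 0.374). The sign of the mRNA value turned under TMM (-0.14), DESeq2 (-0.16) and the median gene (-0.05), and without the CPA18 mRNA-seq library of experiment 2 (-0.21).

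The importer Slc39a14 had 0 reads in the CPA18 Ribo-seq library of experiment 2, where a count of 0 allows up to 14.8 RPM (reads scaled to the library total), and was therefore fitted among the 13662 genes with at least 10 reads over all libraries. Its mRNA stood at 1.56, 0.865 and 0.845 RPKM in control, at 1.24, 0.270 and 0.214 in CPA1 and at 2.29, 1.67 and 3.28 in CPA18. All CPA18 mRNA libraries were above the others, but the CPA1 levels of experiments 2 and 3 rest on 2 reads each. Against control the log2 value in CPA18 was 1.23 ± 0.515 (adjusted p = 0.0793 by edgeR). It passed without the CPA18 mRNA-seq library of experiment 1 (1.65, adjusted p = 0.0321) or the CPA1 library of experiment 2 (1.23, adjusted p = 0.0496). From CPA1 to CPA18 Slc39a14 mRNA rose by 2.20 ± 0.553 (adjusted p = 0.00235, 0.151 without the block), in a fit that called 17.7% of genes up. Without the CPA18 mRNA-seq library of experiment 3 the latter was 1.71 with an adjusted p of 0.0799. Its footprints stood at 1.98, 1.31 and 0.563 RPKM in control, at 3.13, 0.521 and 1.29 in CPA1 and at 1.21, 0 and 3.30 in CPA18. They overlapped between treatments, with a log2 value of 0.76 ± 0.718 in CPA18 (adjusted p = 0.593). This value turned negative without the experiment 3 library of control (-0.13) or of CPA18 (-1.42), and under limma (-0.19).

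**Figure D3:**
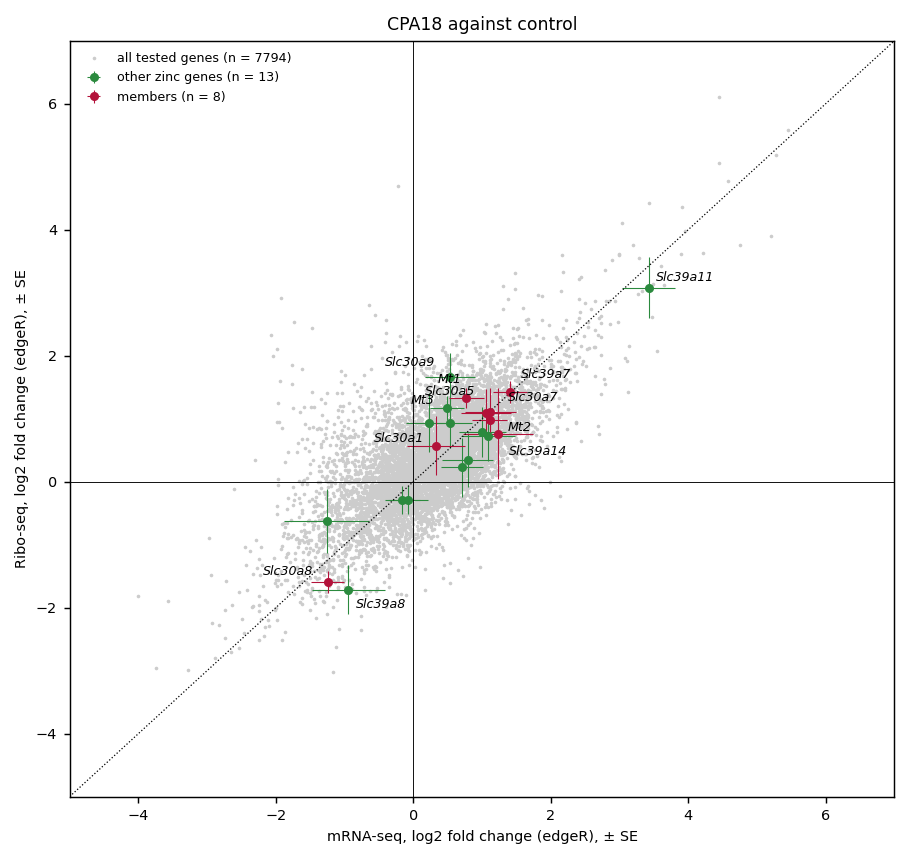
Log2 fold change in CPA18 against control in mRNA-seq (horizontal axis) and Ribo-seq (vertical axis), both from edgeR and ± SE, for the 8 members, the 13 other zinc genes that were tested and all 7794 tested genes (grey), with a dotted line of equal change. Slc30a8 lies at the lower left with Slc39a8, the other members lie at the upper right, and Slc39a11 lies farthest out at 3.42 and 3.08.

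Between the 2 CPA times, Slc39a7 rose and Slc30a8 fell in mRNA-seq, in which 37.5% of all genes were called, 31.9% higher and 5.54% lower, and the other 5 tested members were not called. In Ribo-seq 3 members rose and 1 fell from CPA1 to CPA18, beside 22.5% of all genes called in either direction. Slc39a7 and Slc30a8 were again among them. Mt1 footprints rose by a further 0.54 ± 0.154 (adjusted p = 0.00360 by edgeR, 0.0714 without the block), while Mt2 stood at -0.10 ± 0.152 (adjusted p = 0.692). Mt1 was higher in CPA18 in 2 of 3 experiments. The Mt1 call was lost without the CPA1 Ribo-seq library of experiment 1 or 2 or the CPA18 library of experiment 2, with log2 values of 0.31 to 0.48 (adjusted p 0.0712 to 0.244), and under TMM (0.22), DESeq2 (0.25), the median gene (0.20) and the totals without Ins1 and Ins2 (0.34). Without the CPA1 library of experiment 3 it was 0.84. Under the median gene, on the other hand, Mt2 was called lower in CPA18 than in CPA1. Slc30a5 footprints rose by 1.32 ± 0.421 (adjusted p = 0.0118). That call was lost without the CPA1 or CPA18 Ribo-seq library of experiment 1 or 2, with log2 values of 0.61 to 1.29 (adjusted p 0.0572 to 0.453), and under TMM (0.99), the median gene (0.97) and DESeq2 (1.18). Without the CPA18 library of experiment 3 it was 2.21.

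Ratios between members within a library do not depend on the library total or on the share of Lars2 and insulin reads. The ratio of Slc39a7 to Slc30a8 in mRNA-seq was 0.542, 1.55 and 2.19 in control, 0.795, 1.58 and 2.11 in CPA1 and 3.37, 10.3 and 12.9 in CPA18. Within experiments it was on average 6.24-fold higher in CPA18 than in control, with an SD of 0.0869 on the log2 scale. In Ribo-seq it was 0.310, 0.307 and 0.423 in control, 0.271, 0.250 and 0.481 in CPA1 and 2.73, 2.42 and 3.27 in CPA18, on average 8.13-fold higher than in control. In control and CPA1 footprints of Slc30a8 thus exceeded those of Slc39a7 per length in every library, and in CPA18 the order was the opposite in every library. This pair was chosen for its opposite changes, so the ratio is given without a test.

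The ratio of Mt1 to Mt2 moved little by comparison. In mRNA-seq it was 1.25, 1.66 and 1.40 in control, 1.06, 1.34 and 1.01 in CPA1 and 1.04, 1.20 and 1.18 in CPA18, lower than in control in 3 of 3 experiments at both times. In Ribo-seq it was 1.37, 1.06 and 0.803 in control, 1.06, 0.707 and 0.813 in CPA1 and 1.61, 1.38 and 1.07 in CPA18, which was above control and above CPA1 in 3 of 3 experiments. The ranges overlapped between control and CPA18 in Ribo-seq, and the ratio was not tested.

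**Figure D4:**
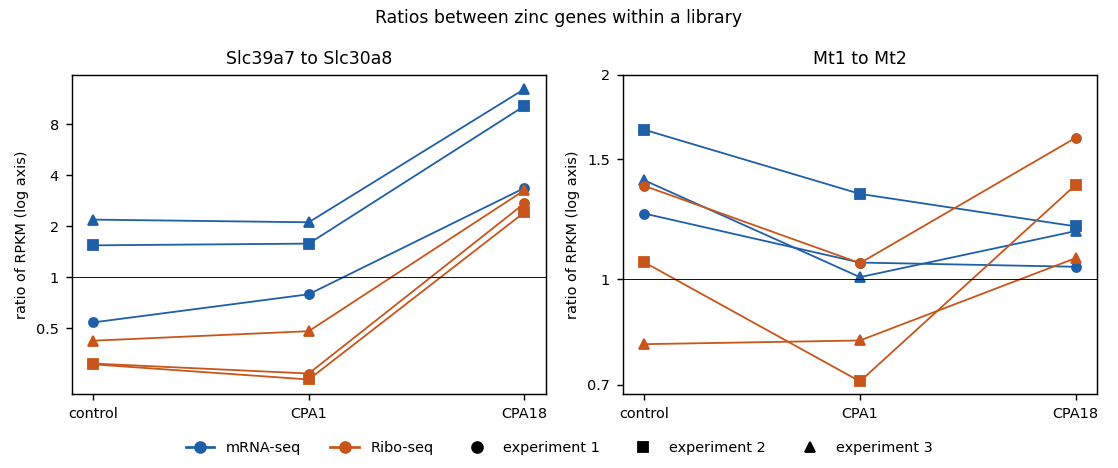
RPKM ratio within each library (vertical log axis) of Slc39a7 to Slc30a8 (left) and of Mt1 to Mt2 (right) in control, CPA1 and CPA18, with lines joining the libraries of 1 experiment and assay. The left ratio lies between 0.250 and 2.19 in control and CPA1 and between 2.42 and 12.9 in CPA18, and the right one stays between 0.707 and 1.66 throughout.

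Ribosome occupancy, the Ribo-seq RPKM divided by the mRNA-seq RPKM of the same treatment and experiment, set the members apart in control cells. Slc30a8 stood at 2.10, 2.80 and 2.92, above 72.4% to 80.1% of tested genes, and Mt2 at 3.48, 2.25 and 2.69. Slc39a7 stood at 1.20, 0.556 and 0.563, above 17.8% to 42.3% of tested genes. The median gene was at 1.38, 1.13 and 1.22. Slc30a8 was thus above and Slc39a7 below the median gene in each of the 3 control experiments. Both RPKM values are per length of the whole mRNA, UTRs included, while footprints lie mainly on the coding region. Differences in occupancy between genes therefore also carry the coding share of each mRNA, which was not corrected for.

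No change of ribosome occupancy was detected for any member in any of the 3 comparisons. edgeR's interaction of assay and treatment called 0 of the 7 members, and 0 had an unadjusted p under 0.05. Of all genes, 0.0898%, 0.462% and 0.0770% were called in CPA1 against control, CPA18 against control and CPA18 against CPA1. DESeq2 and limma also called 0 members. In CPA18 Slc30a8 stood at 2.11, 2.11 and 1.91, Slc39a7 at 1.71, 0.498 and 0.484, Mt1 at 5.99, 2.54 and 1.73 and Mt2 at 3.87, 2.21 and 1.90. Each of these ranges overlapped that of the control libraries. The test left wide intervals. The log2 change of occupancy in CPA18 against control was -0.35 for Slc30a8 (approximate 95% interval -0.94 to 0.24), 0.02 for Slc39a7 (-0.55 to 0.60), 0.56 for Mt1 (-0.04 to 1.16) and -0.13 for Mt2 (-0.73 to 0.46). The sign for Slc39a7 and for Mt2 changed with the alternatives. Mt1 occupancy was higher in CPA18 than in control in 3 of 3 experiments, with an adjusted p of 0.595. For the scarce members the values spread more, as for Slc30a1 with 8.63, 0.989 and 1.46 in CPA18.

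**Figure D5:**
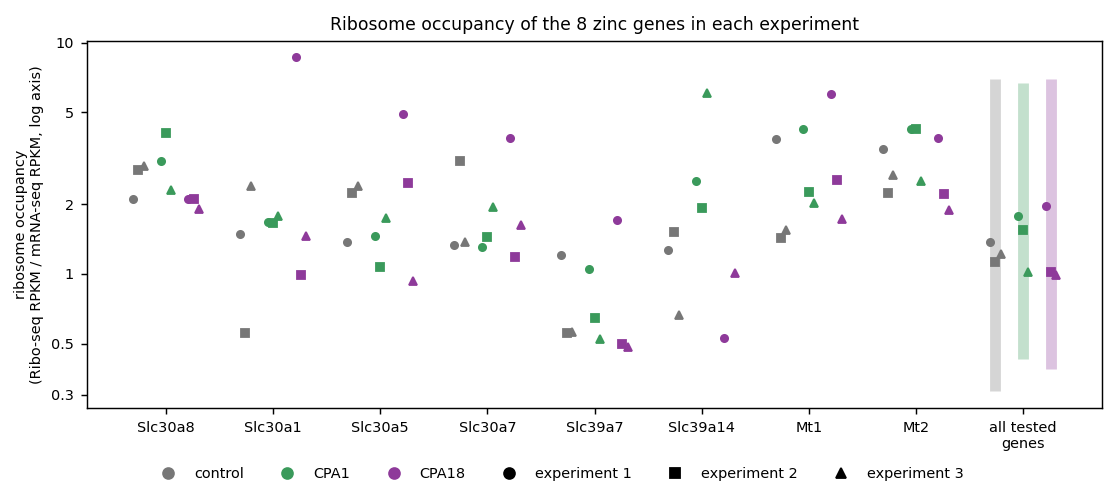
Ribosome occupancy (Ribo-seq RPKM over mRNA-seq RPKM, vertical log axis) of the 8 genes by treatment (colour) and experiment (shape), with the median of all tested genes at the right and pale bars from their 5th to 95th percentile (mean of 3 experiments). Slc30a8 and Mt2 lie at 1.90 or above and Slc39a7 at 1.71 or below in every experiment and treatment, and 1 value of 0, Slc39a14 in CPA18 of experiment 2, cannot be drawn.

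Of a list of 22 other zinc genes (the remaining Slc30a and Slc39a transporters, Mt3, Mt4, the sensor Mtf1 and the granule zinc transporter Tmem163), 21 had reads and 13 were tested. The most abundant in control mRNA-seq were Mt3 at 347 ± 180 RPKM, Tmem163 at 72.9 ± 18.2 and Slc39a6 at 16.3 ± 5.46, the last within the spread of Slc39a1 at 16.1 ± 7.49. In CPA18 against control 3 rose and 0 fell in mRNA-seq, beside 25.9% and 7.69% of all genes, and 3 rose and 1 fell in Ribo-seq, beside 24.6% and 6.35%. The balance depended on the scaling: under TMM and under the median gene, 1 was called higher (Slc39a11) and 3 lower (Slc39a8, Slc39a10, Tmem163) in mRNA-seq, and 3 higher and 3 lower (Slc39a6, Slc39a8, Tmem163) in Ribo-seq. Under the median gene 15.8% of all genes were called higher and 15.3% lower in mRNA-seq, and 9.42% and 14.3% in Ribo-seq. Slc39a11, which encodes ZIP11, had the largest log2 fold change of the members and these 13 genes in both assays. Its mRNA stood at 2.85, 2.43 and 3.05 RPKM in control, at 1.34, 1.66 and 5.12 in CPA1 and at 11.6, 27.9 and 42.6 in CPA18. All CPA18 libraries were above all others, a log2 fold change of 3.42 ± 0.386 (adjusted p = 2.42e-12 by edgeR, 0.00722 without the block). Its footprints stood at 0.905, 1.48 and 1.73 RPKM in control and at 8.83, 9.17 and 17.8 in CPA18, a log2 fold change of 3.08 ± 0.487 (adjusted p = 1.55e-08) that rests on 2 to 5 reads per control library. These calls held under all alternatives tried that gave a value.

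Slc30a4 (1.09 ± 0.389, adjusted p = 0.0223 by edgeR) and Slc39a9 (1.00 ± 0.342, adjusted p = 0.0162) were also called higher in mRNA-seq in CPA18. Both calls were lost without the block (0.387 and 0.257) and without the control or CPA18 library of experiment 2 or 3, with log2 values of 0.70 to 0.95 for Slc30a4 and 0.90 to 1.10 for Slc39a9. Neither call passed under TMM, DESeq2 or the median gene, and of 23 alternatives that of Slc30a4 held in 9 and that of Slc39a9 in 12. In experiment 1 Slc30a4 mRNA was lower in CPA18 than in control, at 4.29 against 6.03 RPKM. Slc30a4 stood at 1.78 without the control library of experiment 1. Mt3, another metallothionein, rose in footprints by 1.17 ± 0.192 (adjusted p = 4.80e-08), with levels of 269, 308 and 443 RPKM in control and 708, 934 and 675 in CPA18. Slc30a9 footprints rose by 1.66 ± 0.380 (adjusted p = 0.000165), and by 2.59 without the control Ribo-seq library of experiment 3. Slc39a8, which encodes ZIP8, was lower in footprints at -1.72 ± 0.389 (adjusted p = 0.000135), with 16.5, 19.9 and 21.2 RPKM in control and 12.0, 7.06 and 3.12 in CPA18. Without the CPA18 Ribo-seq library of experiment 3 this was -0.94 with an adjusted p of 0.151. Tmem163, like Slc30a8 a transporter of granules and vesicles, was not called in mRNA-seq (-0.16 ± 0.251, adjusted p = 0.660) or Ribo-seq (-0.30 ± 0.222, adjusted p = 0.320) on this scale. Under TMM and the median gene it was called lower in both assays.

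In CPA1 against control, 0 of the 13 other zinc genes were called by edgeR in mRNA-seq, with 0 at an unadjusted p under 0.05. In Ribo-seq Slc39a10 alone fell (-1.55 ± 0.513, adjusted p = 0.0433), on 2 to 4 reads per CPA1 library. That call was lost without the block (0.0941), under limma and without any 1 of 7 Ribo-seq libraries, those of control in experiments 1 and 2, of CPA1 in all 3 experiments and of CPA18 in experiments 2 and 3. From CPA1 to CPA18, Mt3, Slc30a4, Slc39a1, Slc39a9 and Slc39a11 rose and Slc39a8 fell in mRNA-seq, beside 31.9% and 5.54% of all genes. In Ribo-seq Mt3, Slc30a4 and Slc39a11 rose and Slc39a8 fell, beside 22.5% of all genes called in either direction. In mRNA-seq the balance turned with the scaling, to 1 higher (Slc39a11) and 4 lower (Slc39a6, Slc39a8, Slc39a10, Tmem163) under TMM and to 1 higher and 3 lower under the median gene. The share of all genes called under these scalings is not given here, so these counts have no background beside them. The median log2 value of all genes was 0.48 on the library total, -0.06 under TMM and 0.03 under the median gene. The mRNA-seq calls on the scale of the library total, that of Slc39a11 excepted, were lost without the block, and each of them was also lost without at least 1 single library. The Ribo-seq calls of Slc30a4 and Slc39a8 were lost without the CPA18 library of experiment 3 (1.44 and -0.54) or the CPA1 library of experiment 3 (1.09 and -1.13), that of Slc30a4 also without the CPA18 library of experiment 1 (1.37) and that of Slc39a8 also without the CPA1 library of experiment 2 (-1.12).

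Zinc is stored with insulin, so the granule genes were set beside Slc30a8 in CPA18 against control. Footprints of Ins1 (-1.96 ± 0.158), Ins2 (-1.56 ± 0.163), the prohormone convertase genes Pcsk1 (-1.69 ± 0.229) and Pcsk2 (-1.59 ± 0.159), the carboxypeptidase gene Cpe (-0.62 ± 0.151) and the granin gene Chga (-1.06 ± 0.154) fell, each with an adjusted p of at most 0.000433 by edgeR. Iapp, which encodes amylin, was at -0.06 ± 0.154 (adjusted p = 0.802). In mRNA-seq Ins1 (-2.63 ± 0.326), Ins2 (-1.96 ± 0.434), Pcsk1 (-1.48 ± 0.309), Pcsk2 (-1.56 ± 0.263) and Chga (-0.95 ± 0.309) fell, with adjusted p of at most 0.0118 that rose to between 0.0850 and 0.470 without the block. Cpe mRNA (0.47 ± 0.270, adjusted p = 0.176) and Iapp mRNA (-0.80 ± 0.352, adjusted p = 0.0668) were not called, but Iapp was called lower under TMM (-1.18) and the median gene (-1.07). Ins2 mRNA was not called without experiment 1 (-1.89, adjusted p = 0.171). The Chga mRNA call was lost without the control library of experiment 1 or 2 or the CPA18 library of experiment 1 or 3, with log2 values of -0.80 to -0.92. The footprint change of Slc30a8, -1.60, lay within the range of the granule genes. The stress genes Atf4, Ddit3 and Hspa5 rose in CPA18 in both assays, Hspa5 by 1.83 ± 0.249 in mRNA-seq (adjusted p = 2.35e-09) and 1.94 ± 0.155 in Ribo-seq (adjusted p = 9.32e-30).

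The genes whose profile over the 18 libraries was most like that of each member were found by Pearson's r of log2(RPKM + 0.5), after the mean of the same assay and experiment was subtracted, among 4917 genes. Slc30a8 was most like G6pc2 (r = 0.985), Hdac6 (0.985) and Hadh (0.978), and Slc39a7 was most like Erg28 (0.990), Lonp1 (0.988) and Pycr1 (0.988). Mt1 was most like Letmd1 (0.939), Nop53 (0.936) and 1190007I07Rik (0.933), and Mt2 was most like Insig1 (0.953), Chac1 (0.928) and Gadd45a (0.917). For the scarce members the first gene was 1600012H06Rik for Slc30a1 (0.944), Tmem263 for Slc30a5 (0.933), Tcta for Slc30a7 (0.941) and Sft2d1 for Slc39a14 (0.868). The libraries share their experiments and treatments, and the profiles hold 3 treatments only, so these values describe likeness in these libraries and no more.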

How the data were processed

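MIN6 libraries of control, CPA1 and CPA18 cells (3 experiments each, mRNA-seq and Ribo-seq) were used. The authors aligned reads of 15 to 40 bases to mouse RefSeq RNA of GRCm38.p6 with Bowtie2 (version not given in the sources used here), keeping alignments of at least 95% identity. The authors deposited, for each transcript and library, read counts, RPM (reads scaled to the library total) and RPKM (RPM per kilobase of transcript). RPM was not used.

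Of 30741 transcripts, 30232 were matched to gene symbols with their version and 478 without it, and 31 were not matched. Counts and RPKM were summed per gene. Counts were tested with edgeR 4.0.16 (quasi-likelihood, R 4.3.3) on the 7794 genes with at least 1 read in all 18 libraries, with the library total as size, the experiment as a block and Benjamini-Hochberg adjustment over all genes. For ribosome occupancy the tested term was the assay by treatment interaction. Slc39a14 came from a fit of 13662 genes with at least 10 reads in all. Calls required an adjusted p under 0.05. The script was tested on simulated counts.

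Experiments were paired because the labels name the batch. Deviations of same-numbered libraries from their group means correlated at 0.547 on average (0.116 to 0.740) in mRNA-seq and 0.139 (0.0887 to 0.190) in Ribo-seq. The labels of 2 control libraries of experiment 2 disagree on the assay, and titles were followed. Nothing beyond the experiments separates the cultures. The block removes differences in level between experiments, so p-values measure how far the treatment changes vary between experiments. Only the fit without the block includes the spread in level.

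The members, lists and alternatives were chosen with earlier results of these data known. All members are named, other zinc genes if called or among the 3 highest in control mRNA-seq (Tmem163 by level), and granule and stress genes as references. The 3 genes most like a member were taken among genes with a mean RPKM of at least 5 in each assay. Alternatives were other scalings (TMM, the median gene, totals without Ins1, Ins2 or Lars2), DESeq2 1.42.0, limma 3.58.1 on log2(RPKM + 0.5) or log2(RPKM + 1), other filters, no block, and leaving out each library or experiment. Intervals are Wald intervals, and the limit of a count of 0 (3 counts) covers counting error only.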

Additional observations from a re-analysis of the deposited data

How the results depend on the processing

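The number of members called in mRNA-seq of CPA18 against control was 6 and became 3 under TMM, DESeq2 and the median gene and 0 with no replicate block, with 3 to 6 when a library or experiment was left out. From CPA1 to CPA18 it was 2 in mRNA-seq, 0 with no replicate block and 2 to 4 with a library or experiment left out. For CPA1 against control it was 0, and 1 under TMM, DESeq2 and totals without Ins1, Ins2 and Lars2, 2 with totals without Lars2 (chosen after seeing the data) and 0 to 1 with a library or experiment left out. In Ribo-seq the counts were 2 for CPA1 against control (1 to 2 with a library or experiment left out), 6 for CPA18 against control (4 to 6) and 4 for CPA18 against CPA1 (2 under TMM and DESeq2, 2 to 4 with a library or experiment left out). Ribosome occupancy gave 0 members under every alternative. Without the block, calls over all genes went from 2617 to 154 in mRNA-seq and from 2409 to 1959 in Ribo-seq of CPA18 against control. Shares of all genes called are given for some alternatives only, and not for TMM or DESeq2. The member counts under TMM and DESeq2, and the counts of other zinc genes under TMM, therefore have no background beside them.

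Of 23 alternatives, the mRNA-seq calls of Slc30a8, Slc39a7 and Mt2 in CPA18 against control held in 22 and those of Mt1, Slc30a5 and Slc30a7 in 11. The Ribo-seq calls of Slc30a8, Slc39a7, Mt1 and Mt2 held in all 23 and those of Slc30a5 and Slc30a7 in 10. Signs turned for values that were not called: Slc30a1 mRNA (-0.14 under TMM, -0.048 under the median gene, -0.16 under DESeq2, -0.21 to 0.68 with a library or experiment left out), Slc39a14 footprints (-0.19 and -0.060 under limma with pseudocounts of 0.5 and 1, -1.52 to 1.36 with a library or experiment left out), Iapp footprints (-0.14 to 0.041 likewise), Mt2 occupancy (-0.29 to 0.13 likewise) and Slc39a7 occupancy (-0.0045 with totals without Ins1 and Ins2, -0.12 under the median gene, -0.035 with no replicate block, -0.21 to 0.23 likewise), all in CPA18 against control. The cause was not tested. Depth limits the scarce members: Slc30a1, Slc30a5, Slc30a7 and Slc39a14 had at most 159 reads in a library. Where a library was left out, the remaining ones of its group were assumed to vary like the other groups.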
